A study of Mus musculus with 9 samples.

Results

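The genes described here are the mouse integrin subunits and laminin chains, taken by gene symbol from the full count table. They are protein-coding genes whose GENCODE M21 symbol is Itga or Itgb with its subunit number or letter, or Lama, Lamb or Lamc with its chain number; Itgax was not included. Described are 35 of the 56398 rows: 25 integrin subunits (17 alpha and 8 beta) and 10 laminin chains. The study injected CT26 cells, a colon carcinoma line of BALB/c origin, into BALB/c mice and sequenced RNA from 9 samples, 3 for each of 3 groups. Sham samples are labelled healthy colon, with no further detail of the sham procedure. Model samples are colon tumours from mice that received saline (6 g/kg once daily), and AC samples are colon tumours from mice that received Astragalus with Curcuma phaeocaulis Valeton, mixed 2:1, at 6 g/kg once daily. All animals were of strain BALB/c, and every tumour came from this 1 injected line. The labels give no age, injection site or length of treatment. Nor do they state whether each sample of a group is another animal, so p-values here reflect the spread among the sampled libraries alone, and that spread may be technical.

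Integrins are paired receptors, an alpha and a beta subunit, that hold cells to the surrounding matrix or to other cells and signal through the actin cytoskeleton. Laminins are secreted trimers of an alpha, a beta and a gamma chain, and they form the laminin network of basement membranes, the thin sheets under epithelia and around vessels, muscle and nerve. In the gut, Lama3 and Lamb3 belong to the laminin that anchors epithelial cells, whereas trimers with Lama5 and either Lamb1 or Lamb2 with Lamc1 lie in most mature basement membranes.

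Library totals lay between 15690038 and 23476056 counts, and 3 counts equal 0.128 to 0.191 CPM (counts scaled to the library total). Levels of 1 gene are given below as CPM with TMM scaling over all 9 libraries, and levels of different genes are compared as the deposited FPKM, which are divided by gene length. Some libraries stood apart. Sham 1 had a summed level of 139 CPM for 9 smooth muscle markers, against 1477 and 1615 CPM in sham 2 and 3, and of 1362 CPM for 7 B and plasma cell markers, against 221 and 158 CPM. Of the 33 members with enough counts to be tested, 5 were at least 2-fold higher in sham 1 than in the mean of sham 2 and 3, and 14 were at most 0.5 times it. The same count over all genes was not made. Sham 1 also stood apart over all genes, so these counts do not single out the members. The epithelial marker Epcam was at 2809 to 2955 CPM in colon, at 35.6 CPM in model 1 and 67.6 CPM in AC 3, and at no more than 0.95 CPM in the other tumours. Of 12 epithelial markers, 11 passed as lower in both tumour groups than in colon, where 32.9% (model) and 32.7% (AC) of all genes did.

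Colon and tumour differed for most integrins and laminins, as they did for most genes. In model tumours against sham colon, 33 of the 35 members had enough counts to be tested with edgeR (quasi-likelihood test, 3 libraries a group, threshold 0.05 on the Benjamini-Hochberg adjusted p over all genes). Of these, 13 rose, 8 fell and 12 did not pass. That is 63.6% of the tested members, where 69.7% of the 18228 genes tested passed, 36.8% higher and 32.9% lower. The median log2 fold change was 0.58 over the members and 0.12 over all genes. The laminins leaned upward, with 6 higher and 1 lower of 9 tested and a median of 3.53, and the integrins were split evenly, with 7 higher and 7 lower of 24 and a median of 0.23. For 22 members (66.7%) colon and tumour libraries were fully separate, as they were for 76.9% of all genes tested.

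AC tumours were set against the same 3 sham libraries, so both tumour comparisons share their controls and are given side by side, not as separate evidence. In AC tumours against sham colon 13 members rose, 9 fell and 11 did not pass (66.7% called, background 68.2%, of which 35.5% higher and 32.7% lower), with a median log2 fold change of 0.20 against 0.10 over all genes. Colon and AC libraries were fully separate for 21 members (63.6%) and for 75.8% of all genes. TMM scaling matters here, because sham libraries had factors of 0.709 to 0.800 and tumour libraries of 1.13 to 1.19. Without scaling the median of all genes moved from 0.12 to 0.72 in model tumours and from 0.10 to 0.75 in AC tumours. The share of called genes that were higher then moved from 52.8% to 67.3% and from 52.1% to 68.2%, and the members' split became 16 higher and 4 lower in model tumours and 15 higher and 4 lower in AC tumours (all genes called: 73.9% and 72.6%). Without sham 1, which stood apart, the split was 17 higher and 10 lower in model tumours and 16 higher and 12 lower in AC tumours (all genes called: 78.8% and 75.7%). Sham 2 and 3, which then remain, were closer to each other than any pair of tumour libraries in a group. Their chi-square per degree of freedom over genes was 3.06, against 10.2 to 28.7 in tumour pairs and 100.5 and 118.8 in pairs with sham 1. All p-values without sham 1 rest in part on that narrow spread, which may be technical. Below, where a pair of values carries no group name, the first is model and the second AC tumours, each against sham.

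**Figure D1:**
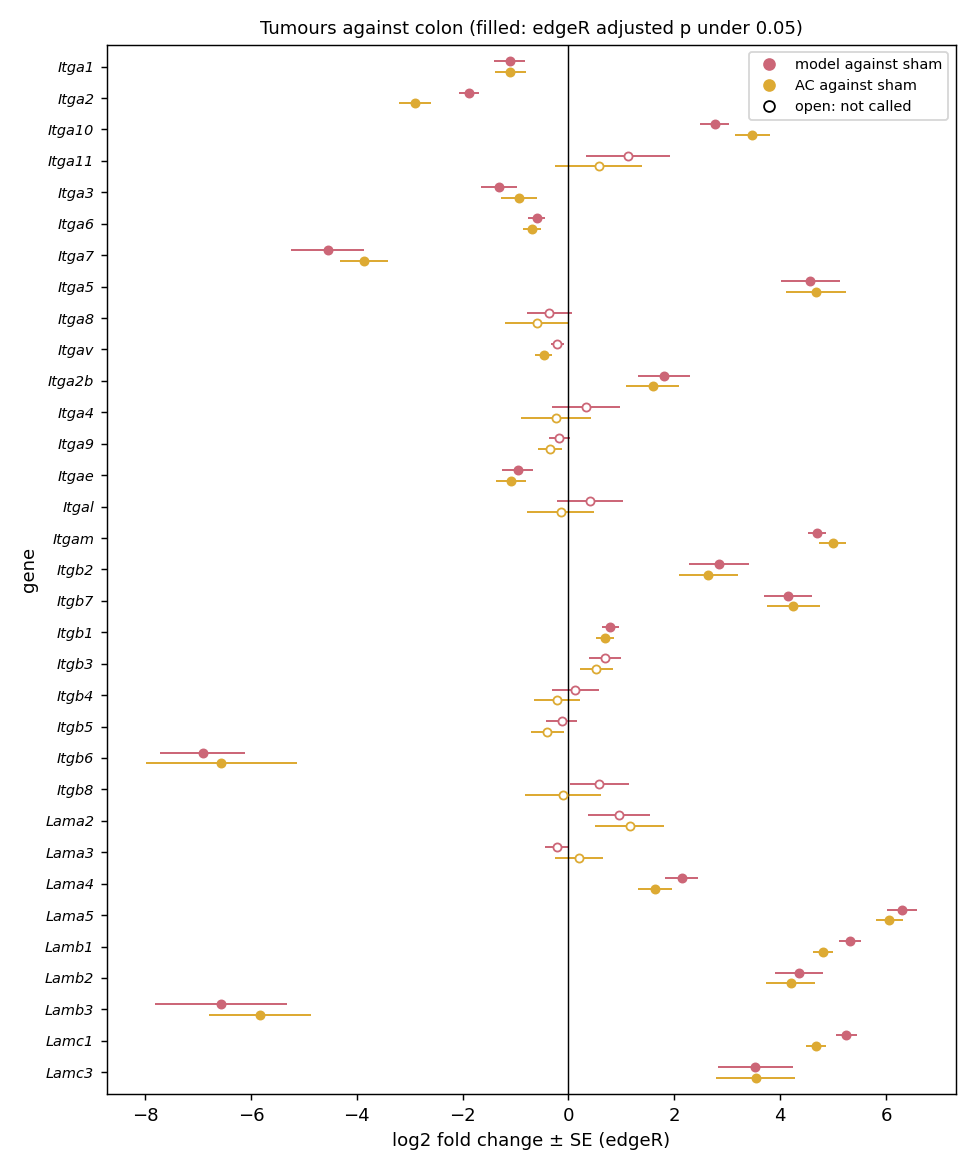
Log2 fold change (x axis, with SE from edgeR) of each tested member (y axis) in model and AC tumours against sham colon; filled points passed an adjusted p of 0.05 and open points did not. Lama5, Lamb1, Lamc1, Itgam and Itga5 lie farthest to the right, and Itgb6, Lamb3 and Itga7 farthest to the left; the lower positions of Itga6 and Itgav in model tumours reach or cross 0 without library scaling.

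The sequences just upstream of an annotated RefSeq start are printed for 3 members with a large rise and for the 2 members with the largest fall with all libraries, to show reference DNA at these genes; which start the transcripts used was not measured. They are reference sequences from the RefSeq table of build GRCm38.p6, not BALB/c reads, and each stops where an annotated exon begins. The RefSeq start lies 0, 59, 28 and 40 bases from the GENCODE gene start for Lama5, Lamb1, Itga5 and Itgb6. For Lamb3 it lies 94295 bases from it, so the Lamb3 window is inside the GENCODE gene span given below. Entries were found for 22 of the 35 members. Capitals mark each match to the GC box GGGCGG on either strand, a motif bound by Sp family factors. They lie at chr2:180225860-180226109 on the minus strand (Lama5), chr12:31265043-31265233 on the plus strand (Lamb1), chr15:103366792-103367041 on the minus strand (Itga5), chr1:193301744-193301992 on the plus strand (Lamb3) and chr2:60722644-60722853 on the minus strand (Itgb6), all written 5′ to 3′ on the gene's strand.
Lama5: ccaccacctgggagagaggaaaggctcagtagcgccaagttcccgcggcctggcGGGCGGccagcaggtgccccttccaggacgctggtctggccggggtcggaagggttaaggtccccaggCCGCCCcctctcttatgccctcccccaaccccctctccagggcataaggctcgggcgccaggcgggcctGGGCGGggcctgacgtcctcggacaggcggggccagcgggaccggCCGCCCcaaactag
Lamb1: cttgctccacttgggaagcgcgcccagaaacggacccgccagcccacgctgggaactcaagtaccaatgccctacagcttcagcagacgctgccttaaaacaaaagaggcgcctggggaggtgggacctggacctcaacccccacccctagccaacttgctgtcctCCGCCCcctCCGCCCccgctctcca
Itga5: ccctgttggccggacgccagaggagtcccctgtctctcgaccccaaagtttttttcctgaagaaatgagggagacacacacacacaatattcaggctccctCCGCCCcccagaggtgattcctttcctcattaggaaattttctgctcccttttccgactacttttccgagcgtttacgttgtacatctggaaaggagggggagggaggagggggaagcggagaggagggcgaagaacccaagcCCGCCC
Lamb3: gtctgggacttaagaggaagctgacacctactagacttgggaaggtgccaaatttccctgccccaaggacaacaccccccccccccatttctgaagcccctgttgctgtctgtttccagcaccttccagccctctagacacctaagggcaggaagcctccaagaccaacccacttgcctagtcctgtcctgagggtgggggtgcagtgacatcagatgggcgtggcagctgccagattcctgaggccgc
Itgb6: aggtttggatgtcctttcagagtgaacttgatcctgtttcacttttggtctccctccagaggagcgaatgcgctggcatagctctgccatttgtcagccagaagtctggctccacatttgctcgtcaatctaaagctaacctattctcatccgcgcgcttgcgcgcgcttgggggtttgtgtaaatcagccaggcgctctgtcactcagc
The GC box was found 4 times in the Lama5 window, 2 times in the Lamb1 window and 2 times in the Itga5 window, and the letters were not found in the windows of Lamb3 and Itgb6. Over the 250 bases before each start it was present in 9 of 25 member entries (36.0%) and in 32.7% of all 32851 promoters of the table. Members not printed did not all follow the split of the printed windows. Of those that rose in model tumours, Lamb2, Itgb7, Itga10 and Itga2b had 0 matches, and Itgam and Itgb1 had 1 each. Of those that passed as lower, Itga3 had 3 and 1 in its entries, and Itga1 and Itga2 had 0. The AP-1 site TGACTCA or TGAGTCA was present in 4.46% of all promoters and in 0 of the 25 member entries, Lama5 and Itga5 included. These matches describe letters in a window and are not evidence of binding.

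Among the laminin alpha chains, Lama5 had the largest rise of all members. Lama5 (chr2:180176373-180225859), the alpha chain of most adult epithelial and vessel basement membranes, was at 6.06, 10.3 and 10.4 CPM in sham 1 to 3, at 725, 752 and 596 CPM in model 1 to 3 and at 605, 634 and 530 CPM in AC 1 to 3. All tumour libraries were far above all colon libraries, and model and AC values overlapped. The log2 fold change against sham was 6.30 (SE 0.284, adjusted p = 1.99e-05) in model and 6.06 (SE 0.257, adjusted p = 2.76e-05) in AC tumours. Lama4, the alpha chain typical of endothelial, muscle and fat basement membranes, was at 2.88, 5.61 and 6.02 CPM in sham, 22.8, 22.7 and 17.2 CPM in model and 13, 18.8 and 13.2 CPM in AC libraries. It too rose with no overlap, by 2.14 (SE 0.312, adjusted p = 0.00105) and 1.64 (SE 0.325, adjusted p = 0.00427) on the log2 scale. The summed level of 8 endothelial markers was 41.1 to 44 CPM in sham, 160 to 170 CPM in model and 131 to 177 CPM in AC libraries, and the part of these markers in the rise of Lama4 and Lama5 was not tested.

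Lama3, the alpha chain of the epithelial anchoring laminin, did not pass in either tumour group. It was at 46.3, 36.0 and 37.5 CPM in sham, 37.8, 38.6 and 25.7 CPM in model and 28.8, 27.7 and 79.4 CPM in AC libraries. The groups overlapped, and the single high value was AC 3, the tumour library with the most Epcam; the part of its epithelial transcripts was not tested. The log2 fold change was -0.21 (SE 0.229, adjusted p = 0.429) in model and 0.20 (SE 0.457, adjusted p = 0.718) in AC tumours, and -0.44 (adjusted p = 0.00264) in AC tumours with sham 1 and AC 3 both left out; over all alternatives the adjusted p for AC tumours ran from 0.00264 to 0.998. Lama2, the muscle and nerve laminin chain, was at 0.389, 1.44 and 0.92 CPM in sham, 1.67, 2.64 and 0.881 CPM in model and 1.05, 1.49 and 3.51 CPM in AC libraries. The groups overlapped, and it did not pass in either comparison (log2 0.95, adjusted p = 0.187 and 1.16, adjusted p = 0.156), whereas without library scaling it passed as higher in both (1.55, adjusted p = 0.044 and 1.80, adjusted p = 0.0396). Over all alternatives its adjusted p reached 0.465 and 0.926. Lama1, a chain of embryonic basement membranes, had at most 20 counts in any library and was not tested.

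The beta chains changed places. Lamb1 (chr12:31265234-31329644), a widely expressed beta chain, was at 12.8, 12.1 and 11.7 CPM in sham, 561, 446 and 431 CPM in model and 285, 364 and 376 CPM in AC libraries. Its log2 rise was 5.32 (SE 0.207, adjusted p = 1.62e-05) and 4.81 (SE 0.189, adjusted p = 2.61e-05). Lamb2, the beta chain of synapses, kidney filters and vessels, rose as well, from 1.79, 6.57 and 6.51 CPM to 90.9, 101 and 109 CPM in model and 90.5, 92.0 and 88.5 CPM in AC libraries (log2 4.36, SE 0.456, adjusted p = 0.000263 and 4.20, SE 0.459, adjusted p = 0.000379). Both genes showed no overlap between colon and tumour, and every AC library lay below every model library for Lamb1. Lamb3 (chr1:193207699-193343878), the beta chain of the epithelial anchoring laminin, went the other way: 87.6, 204 and 214 CPM in sham, 4.46, 0.273 and 0.104 CPM in model and 0.665, 1.33 and 6.66 CPM in AC libraries. It fell by 6.57 (SE 1.25, adjusted p = 0.00327) in model tumours and fell by 5.83 (SE 0.97, adjusted p = 0.00225) in AC tumours, on the log2 scale. Model 1 and AC 3, which had the most Epcam among the tumours, also had the most Lamb3 in their groups, and the summed level of 12 epithelial markers ran from 18300 to 27623 CPM in sham, from 191 to 540 CPM in model and from 268 to 923 CPM in AC libraries. Of the 12, Krt20 had the largest mean in tumours, 210 CPM in model and 305 CPM in AC libraries, against 5420 CPM in sham. Most of the others fell further, so the sums understate their fall. Without model 1 the log2 fold change of Lamb3 was -9.68, and without AC 3 it was -7.39 in AC tumours. In bulk tissue, fewer cells of a type and less RNA per cell cannot be told apart, and the part of the epithelial markers in this fall was not tested.

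Lamc1 and Lamc3, both gamma chains, rose. Lamc1 (chr1:153218922-153332786), the gamma chain of nearly all basement membrane laminins, was at 13.3, 15.7 and 14.4 CPM in sham, 595, 577 and 456 CPM in model and 318, 356 and 422 CPM in AC libraries. The log2 rise was 5.25 (SE 0.199, adjusted p = 1.57e-05) and 4.67 (SE 0.187, adjusted p = 2.63e-05), and colon and tumour did not overlap. Lamc3 rose by 3.53 (SE 0.705, adjusted p = 0.00405) and 3.54 (SE 0.745, adjusted p = 0.00549) from very few reads: 0, 3 and 5 counts in sham, 52, 71 and 37 counts in model and 59, 55 and 27 counts in AC libraries. Every tumour library held more Lamc3 reads than any colon library, but its level was at most 3.23 CPM. The size of its rise depended on single colon libraries, at 4.17 and 4.24 without sham 3 and 2.92 in AC tumours without sham 1. The summed level of 8 fibroblast markers was 165 to 243 CPM in sham, 1823 to 2295 CPM in model and 1283 to 1740 CPM in AC libraries. Of the 8, 6 passed as higher in model and 5 in AC tumours, where 36.8% and 35.5% of all genes did. Col1a2 had the largest mean of the 8 in tumours, 1098 CPM in model and 880 CPM in AC libraries, against 35.8 CPM in sham. The part of these markers in the rise of Lamb1, Lamb2, Lamc1 and Lamc3 was not tested.

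**Figure D2:**
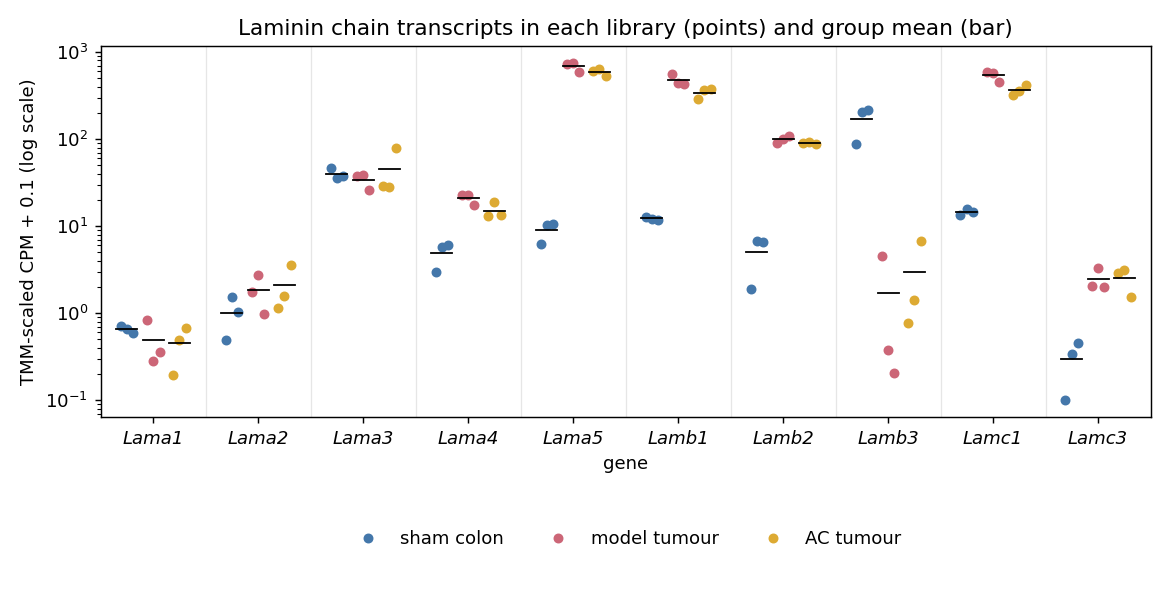
TMM-scaled CPM plus 0.1 on a log axis (y) of the 10 laminin chains (x) in each library; points are libraries, coloured by group, and bars are means of 3 libraries. Lama5, Lamb1, Lamb2 and Lamc1 sit well above colon in every tumour, Lamb3 sits far below it, and Lama3 overlaps between the groups.

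Expressed per length, the make-up of the laminin alpha and beta chains differed almost completely between colon and tumour. Of the summed alpha chain FPKM, Lama3 made up 74.0% ± 8.15 (SD, n = 3) in sham, 4.78% ± 0.455 in model and 7.46% ± 5.12 in AC libraries, and Lama5 made up 15.7% ± 4.67, 92.4% ± 0.606 and 90.1% ± 5.15. Of the beta chains, Lamb3 made up 92.0% ± 2.29 in sham and at most 1.88% in any tumour library, while Lamb1 went from 5.25% ± 2.97 to 74.0% ± 3.91 in model and 69.1% ± 2.9 in AC libraries. Lamb2 supplied most of the remainder in tumours, 25.6% ± 4.41 and 30.1% ± 3.54.

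These shares came with a larger total. FPKM carry no TMM scaling, and here that scaling raises colon levels relative to tumour levels. The rises in the summed FPKM are therefore larger than scaled levels would show. The summed FPKM of the alpha chains was 3.74 ± 0.347 in sham, 75.3 ± 8.29 in model and 67.1 ± 1.76 in AC libraries. The beta chains were already at 20.2 ± 7.22 in colon, almost all of it Lamb3, and reached 74.7 ± 7.01 and 58.2 ± 6.17 in tumours. In colon the beta sum was thus several times the alpha sum, whereas in tumours both sums were of similar size. Transcript shares do not give the trimers made.

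**Figure D3:**
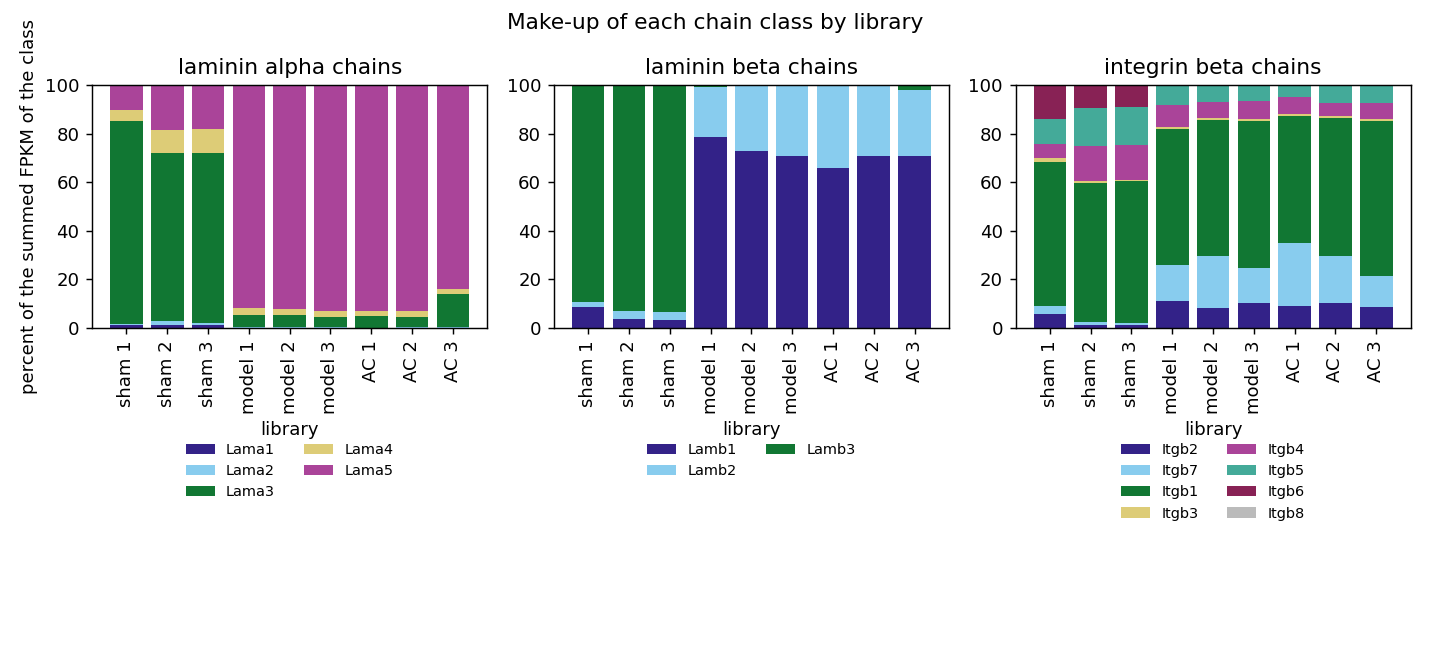
Percent of the summed FPKM of each chain class (y axis) held by each member, stacked, in each of the 9 libraries (x axis), for laminin alpha chains, laminin beta chains and integrin beta subunits. Lama3 and Lamb3 fill most of their classes in colon, Lama5 and Lamb1 in tumours, AC 3 has the largest Lama3 share among tumours (13.4%), and Itgb1 is the largest integrin beta share in every library.

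The laminin-binding integrin alpha subunits, Itga3, Itga6 and Itga7, all passed as lower in tumours, but only Itga7 by a wide margin. Itga7, the main laminin receptor subunit of muscle, was at 19.9, 50.9 and 54.2 CPM in sham, 3.13, 1.23 and 0.674 CPM in model and 2.23, 2.43 and 3.78 CPM in AC libraries, with no overlap. It fell by 4.55 (SE 0.684, adjusted p = 0.00119) in model tumours and fell by 3.86 (SE 0.458, adjusted p = 0.000532) in AC tumours. Without model 1 it fell by 5.39 in model tumours. The smooth muscle markers summed to 139, 1477 and 1615 CPM in sham, 51.5 to 66.8 CPM in model and 58.8 to 156 CPM in AC libraries, low in the same colon library in which Itga7 was lowest; their part in the fall was not tested.

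Itga3, an epithelial laminin receptor subunit, was at 118, 284 and 301 CPM in sham, 93.3, 102 and 81.8 CPM in model and 137, 132 and 93.6 CPM in AC libraries, so AC overlapped with sham 1. Its log2 fold change was -1.31 (SE 0.334, adjusted p = 0.0115) and -0.94 (SE 0.343, adjusted p = 0.0456). The call in AC tumours was lost when sham 2, sham 3 or any of the AC libraries was left out (adjusted p = 0.0874 to 0.139), and that in model tumours without model 3 (adjusted p = 0.0525). Without library scaling neither call for Itga3 held (-0.70, adjusted p = 0.0802 and -0.28, adjusted p = 0.469), and the call in AC tumours was also lost with upper-quartile scaling, limma voom, no filter or the replicate block (adjusted p = 0.0628, 0.0624, 0.058 and 0.0958). Itga6, the partner of Itgb4 in hemidesmosomes, the epithelial anchoring plaques, was at 434, 477 and 485 CPM in sham, 297, 352 and 259 CPM in model and 308, 340 and 218 CPM in AC libraries. Its log2 fold change of -0.60 (SE 0.16, adjusted p = 0.0137) and -0.69 (SE 0.176, adjusted p = 0.0122) became 0.0047 (adjusted p = 0.978) and -0.034 (adjusted p = 0.872) without library scaling, so its direction in model tumours flips there. The call for Itga6 in model tumours was also lost without model 3 (adjusted p = 0.0593). Adjusted p over all alternatives reached 0.133 for Itga3 and 0.98 for Itga6 in model tumours, and 0.606 and 0.872 in AC tumours.

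The collagen-binding alpha subunits moved in both directions. Itga2, an epithelial and platelet collagen receptor subunit, was at 28.5, 32.5 and 31.2 CPM in sham, 8.41, 6.91 and 9.49 CPM in model and 2.71, 4.21 and 5.35 CPM in AC libraries. The 3 groups did not overlap at all, and the log2 fold change against sham was -1.88 (SE 0.182, adjusted p = 0.000191) and -2.90 (SE 0.297, adjusted p = 0.000298). Itga1, the next gene on the same strand (Itga2 at chr13:114833081-114932100, Itga1 at chr13:114953096-115101964), was at 20.8, 45.3 and 43.5 CPM in sham, 16.3, 15.5 and 18.1 CPM in model and 16.8, 18.5 and 15.2 CPM in AC libraries. Its log2 fold change was -1.11 (SE 0.29, adjusted p = 0.0129) and -1.10 (SE 0.293, adjusted p = 0.0143). These calls for Itga1 were lost without library scaling (-0.49, adjusted p = 0.155 and -0.44, adjusted p = 0.192), in model tumours without model 2 (adjusted p = 0.0547) and in AC tumours without sham 2, sham 3 or AC 1 (adjusted p = 0.052 to 0.0568); over all alternatives the adjusted p reached 0.267 and 0.321.

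Itga10, a collagen receptor subunit best known from cartilage, rose. It was at 3.19, 2.24 and 2.83 CPM in sham, 22.8, 16.1 and 16.3 CPM in model and 32.8, 20.6 and 37.8 CPM in AC libraries, with a log2 rise of 2.76 (SE 0.281, adjusted p = 0.000238) and 3.47 (SE 0.329, adjusted p = 0.000226). Its level is uncertain, because 33.5% of its exon bases also belong to the annotated gene Gm42957 on the same strand, which was counted at no more than 0.682 CPM. Itga11, the collagen receptor subunit of fibroblasts, stayed at or under 1.30 CPM in every library and did not pass (adjusted p = 0.241 and 0.563). It passed as higher with sham 2 left out (log2 2.72, adjusted p = 0.0141 and 2.21, adjusted p = 0.0322), and in model tumours with limma on log2(FPKM + 1) and log2(FPKM + 0.1) (0.21, adjusted p = 0.0409 and 1.07, adjusted p = 0.0361); over all alternatives its adjusted p ran from 0.0141 to 0.621 in model tumours and from 0.0322 to 0.996 in AC tumours.

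Itga5 had the largest fitted rise among the integrins whose exons are their own. It did not differ from the rise of Itgb7 (log2 4.15, SE 0.461 and 4.25, SE 0.496) beyond their SEs. Itga5 (chr15:103344286-103366763), which pairs with Itgb1 as the classical fibronectin receptor, was at 2.57, 11.5 and 12.5 CPM in sham, 221, 203 and 192 CPM in model and 214, 225 and 231 CPM in AC libraries. Tumour libraries lay within a narrow band far above colon, and the log2 rise was 4.57 (SE 0.558, adjusted p = 0.000496) and 4.68 (SE 0.565, adjusted p = 0.00057). Itga2b, the platelet and megakaryocyte subunit, was at 0.622, 2.56 and 2.41 CPM in sham, 5.73, 7.68 and 5.91 CPM in model and 5.08, 5.37 and 6.19 CPM in AC libraries. It rose by 1.81 (SE 0.493, adjusted p = 0.0149) and 1.59 (SE 0.503, adjusted p = 0.0281), with the call in AC tumours lost without sham 3, AC 1, AC 2 or AC 3 (adjusted p = 0.0507 to 0.0705). The summed level of 7 platelet markers was 1.20 to 1.63 CPM in sham, 16.2 to 45.5 CPM in model and 19.0 to 49.6 CPM in AC libraries. Only 2 of the 7, Pf4 and Ppbp, had enough counts to be tested. Pf4 alone made up most of the sum in every library, at 0.92 to 1.12 CPM in sham, 11.9 to 30.5 CPM in model and 16.7 to 40.6 CPM in AC libraries. The part of these markers in Itga2b was not tested.

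Itgav, the shared alpha subunit of receptors for RGD ligands such as vitronectin and latent TGF-beta, lay close to its colon level. It was at 248, 277 and 288 CPM in sham, 232, 243 and 218 CPM in model and 182, 175 and 225 CPM in AC libraries. The log2 fold change was -0.21 (SE 0.125, adjusted p = 0.171) in model tumours and -0.47 (SE 0.159, adjusted p = 0.0352) in AC tumours, and both reverse without library scaling, to 0.40 (adjusted p = 0.0144) and 0.18 (adjusted p = 0.308). The call in AC tumours was lost without sham 2, sham 3, AC 1 or AC 2 (adjusted p = 0.0702 to 0.153), and in model tumours Itgav passed as lower without sham 1 (-0.26, adjusted p = 0.0325); over all alternatives the adjusted p ran from 0.0103 to 0.515 in model tumours and from 4.27e-06 to 0.321 in AC tumours. Itga8, an RGD receptor subunit of mesenchymal cells, had at most 1.91 CPM and did not pass (adjusted p = 0.476 and 0.418), although without both sham 1 and AC 3 it passed as lower in AC tumours (-1.35, adjusted p = 0.0313, the lowest of a range up to 0.998).

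The related subunits Itga4 and Itga9 did not pass. Itga4, which pairs with Itgb1 or Itgb7 on leukocytes, was at 39.4, 8.25 and 8.42 CPM in sham, 25.0, 21.9 and 24.3 CPM in model and 17.1, 13.4 and 17.8 CPM in AC libraries. Sham 1 was above every tumour library and sham 2 and 3 below every one. The log2 fold change was 0.33 (SE 0.644, adjusted p = 0.665) and -0.24 (SE 0.66, adjusted p = 0.766), and without sham 1 it was 1.54 (adjusted p = 1.63e-05) and 0.89 (adjusted p = 0.0049). Itga9, a receptor subunit for tenascin and related ligands, was at 10.8 to 16.3 CPM in sham, 11.1 to 12.9 CPM in model and 9.17 to 11.6 CPM in AC libraries (adjusted p = 0.483 and 0.20, and in AC tumours -0.58 with adjusted p = 0.0214 without sham 1). Over all alternatives the adjusted p of Itga4 reached 0.922 and 0.933 and that of Itga9 0.82 and 0.511 in model and AC tumours.

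Among the subunits of leukocyte integrins, Itgam, Itgb2 and Itgb7 rose, and Itgae was lower. Itgam, the alpha subunit of Mac-1 on macrophages and neutrophils, was at 2.33, 2.32 and 2.05 CPM in sham, 57.1, 55.7 and 60.6 CPM in model and 83.3, 80.7 and 50.1 CPM in AC libraries. The log2 rise was 4.70 (SE 0.167, adjusted p = 1.44e-05) and 4.99 (SE 0.255, adjusted p = 4.06e-05), but 68.7% of its exon bases also belong to the annotated gene Gm49368 on the same strand, counted at no more than 0.719 CPM, so its level is uncertain. Itgb2, the beta subunit shared by these receptors, was at 27.4, 8.25 and 7.29 CPM in sham, 117, 88.8 and 105 CPM in model and 87.8, 103 and 81.5 CPM in AC libraries, a log2 rise of 2.85 (SE 0.565, adjusted p = 0.00391) and 2.64 (SE 0.559, adjusted p = 0.00561). Colon and tumour did not overlap for either gene, and without sham 1, the highest colon library for Itgb2, its rise was 3.78 and 3.48.

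Itgb7, the beta subunit of the gut-homing lymphocyte integrins, was at 14.6, 7.05 and 5.38 CPM in sham, 142, 210 and 129 CPM in model and 231, 182 and 111 CPM in AC libraries. It rose by 4.15 (SE 0.461, adjusted p = 0.00034) and 4.25 (SE 0.496, adjusted p = 0.000494) with no overlap. Neither alpha partner of Itgb7 passed as higher with all libraries: Itga4 did so only without sham 1, and Itgae, the alpha subunit of intraepithelial lymphocytes, was at 5.36, 8.33 and 8.42 CPM in sham, 4.32, 3.91 and 2.90 CPM in model and 4.04, 3.60 and 2.78 CPM in AC libraries. Itgae's log2 fold change was -0.96 (SE 0.295, adjusted p = 0.0242) and -1.08 (SE 0.284, adjusted p = 0.0139), and it was lost without library scaling (-0.35, adjusted p = 0.276 and -0.42, adjusted p = 0.218). Leaving out sham 2 or sham 3 also ended the Itgae call in both comparisons (adjusted p = 0.0553 to 0.0591), as did leaving out model 2 or model 3 in model tumours (adjusted p = 0.0698 and 0.0894); the highest adjusted p over all alternatives was 0.277 and 0.22.

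Itgal, the alpha subunit of LFA-1 on lymphocytes, showed the same split of the colon libraries as Itga4. It was at 35.8, 9.53 and 7.08 CPM in sham, 22.7, 21.6 and 26 CPM in model and 15.2, 13.1 and 19.4 CPM in AC libraries. Its log2 fold change was 0.41 (SE 0.617, adjusted p = 0.574) and -0.15 (SE 0.641, adjusted p = 0.843), and without sham 1 it was 1.53 (adjusted p = 6.87e-05) and 0.87 (adjusted p = 0.0144); the highest adjusted p over all alternatives was 0.978 and 0.996. Itgad had at most 7 counts in any library and was not tested. The summed level of 9 macrophage markers was 277 to 329 CPM in sham, 863 to 1152 CPM in model and 961 to 1379 CPM in AC libraries. Of these 9, 8 passed as higher in both tumour groups, where 36.8% and 35.5% of all genes did. Cd14 passed as lower, from a mean of 229 CPM in sham to 69.9 and 68.1 CPM, so the sum understates the rise of the others. The summed level of 9 T cell markers was 118, 43.3 and 41.2 CPM in sham, 20.6 to 29.4 CPM in model and 12.2 to 19.6 CPM in AC libraries, and that of 6 neutrophil markers was 2.41 to 7, 37 to 54.7 and 22.3 to 49 CPM. The part of these markers in the leukocyte subunits was not tested.

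Of the other beta subunits, Itgb1 rose and Itgb6 fell. Itgb6 (chr2:60598292-60722643), an epithelial subunit that pairs with Itgav and activates latent TGF-beta, was at 153, 145 and 145 CPM in sham, 2.64, 0.409 and 0.363 CPM in model and 0, 0.111 and 4.46 CPM in AC libraries. The colon libraries were nearly equal, and within each tumour group the libraries with the most Epcam, model 1 and AC 3, were highest. It fell by 6.91 (SE 0.804, adjusted p = 0.000409) in model tumours and fell by 6.56 (SE 1.43, adjusted p = 0.00683) in AC tumours, beside the epithelial marker sums given for Lamb3. These were the largest fitted falls among the members with all libraries, but they do not differ from those of Lamb3 beyond their SEs, and without model 1 Lamb3 had the larger fall in model tumours. Without model 1 it fell by 8.53, and in AC tumours it fell by 11.28 without AC 3, where 0 and 2 counts remain, and fell by 5.93 without AC 1. Itgb1, the common partner of most alpha subunits, was at 373, 514 and 529 CPM in sham, 783, 816 and 821 CPM in model and 688, 771 and 806 CPM in AC libraries. It rose by 0.79 (SE 0.161, adjusted p = 0.00423) and 0.69 (SE 0.172, adjusted p = 0.0112) with no overlap.

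The remaining beta subunits did not pass, and sham 1 set part of their spread. Itgb3, the partner of Itgav and Itga2b, was at 15.8, 9.85 and 8.50 CPM in sham, 21, 18.3 and 15.3 CPM in model and 18.2, 19.0 and 12.6 CPM in AC libraries (log2 0.69, SE 0.31, adjusted p = 0.0871 and 0.53, SE 0.316, adjusted p = 0.174). Without sham 1 it was 1.03 (adjusted p = 0.000997) and 0.79 (adjusted p = 0.0167), and without library scaling 1.28 (adjusted p = 0.00961) and 1.18 (adjusted p = 0.018). Itgb3 also passed as higher in model tumours with the replicate block (0.73, adjusted p = 0.0427). Itgb4, the hemidesmosome subunit, was at 63.7, 224 and 223 CPM in sham, 214, 160 and 171 CPM in model and 158, 123 and 151 CPM in AC libraries, and Itgb5, an RGD receptor subunit, was at 55.5, 121 and 122 CPM, 100, 88.5 and 78.8 CPM, and 57.3, 89.2 and 77.3 CPM. Sham 1 was the lowest colon library for both. Without it Itgb5 passed as lower in model (-0.41, adjusted p = 0.00678) and AC tumours (-0.78, adjusted p = 0.00778), and Itgb4 in AC tumours (-0.70, adjusted p = 0.0018), where the full fits gave adjusted p = 0.716, 0.292 and 0.681. Itgb8, another activator of latent TGF-beta, had 1.20 to 5.36 CPM in sham, 3.94 to 4.65 CPM in model and 1.28 to 4.56 CPM in AC libraries (adjusted p = 0.383 and 0.91, and 1.42 with adjusted p = 0.00392 in model tumours without sham 1). Over all alternatives the highest adjusted p was 0.233 and 0.386 for Itgb3, 0.999 and 0.977 for Itgb4, 0.983 and 0.623 for Itgb5 and 0.797 and 0.989 for Itgb8.

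**Figure D4:**
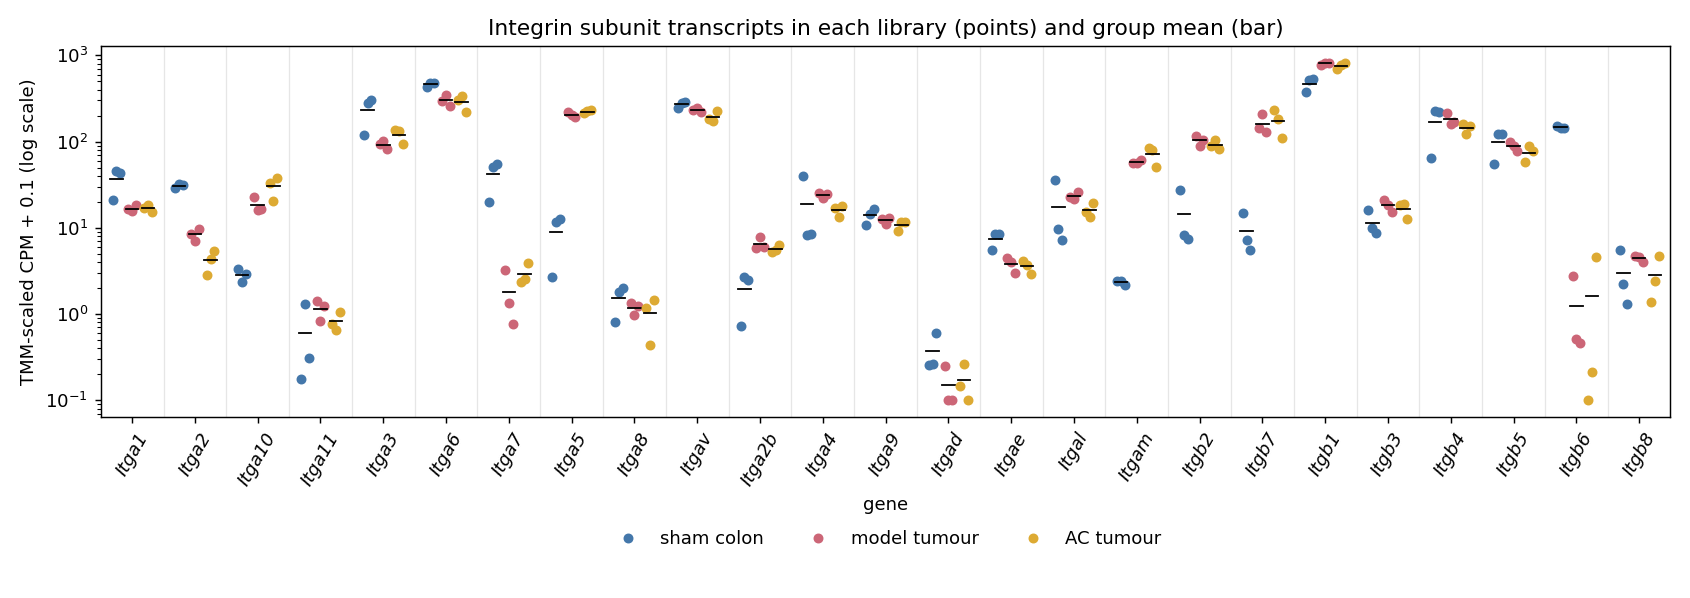
TMM-scaled CPM plus 0.1 on a log axis (y) of the 25 integrin subunits (x) in each library; points are libraries, coloured by group, and bars are means of 3 libraries. Itga5, Itgam, Itgb7 and Itga10 lie above colon in every tumour, Itgb6, Itga7 and Itga2 below it, and sham 1 lies apart from sham 2 and 3 for Itga4, Itgal, Itgb2 and Itgb4.

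On the FPKM scale Itgb1 was the most abundant member in all 3 groups, at 85.6 ± 10.7 (SD, n = 3) in sham, 227 ± 7.83 in model and 217 ± 18.0 in AC libraries. FPKM carry no TMM scaling, so rises from colon to tumour look larger on this scale. With TMM scaling Itgb1 rose by 0.79 and 0.69 on the log2 scale. Its share of the summed integrin beta FPKM stayed near 58.3% ± 0.808, 57.5% ± 2.74 and 57.4% ± 5.73, while Itgb6 went from 10.8% ± 2.67 to at most 0.202% in any tumour library and Itgb7 from 1.81% ± 1.39 to 16.7% ± 3.98 and 19.5% ± 6.48. In colon the next members after Itgb1 were Itga6 (38.3 ± 0.22 FPKM), Itga3 (30.0 ± 11.7 FPKM) and Itgb5 (20.6 ± 7.01 FPKM), and the ranges of Itga3 and Itgb5 are too wide to order them. In model tumours they were Lamc1 (75.2 ± 9.49 FPKM), Lama5 (69.6 ± 7.26 FPKM) and Itgb7 (66.3 ± 16.9 FPKM), which do not differ beyond their spread, so laminin chains stood among the leading members in tumours and none did in colon except Lamb3 (18.7 ± 7.01 FPKM, level with Itgav at 18.7 ± 0.273 FPKM). In AC tumours Itgb7 (73.7 ± 25.3 FPKM), Lama5 (60.6 ± 4.77 FPKM) and Itga5 (53.0 ± 2.22 FPKM) followed Itgb1, with Lamc1 at 51.7 ± 7.84 FPKM, and the ranges of these 4 over the libraries overlap. Among alpha subunits, Itga5 held 1.21% ± 0.644 of the summed FPKM in sham, 29.9% ± 1.52 in model and 31.2% ± 2.92 in AC libraries, and Itga6 held 37.3% ± 4.78, 24.0% ± 2.44 and 21.9% ± 3.65.

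AC tumours against model tumours is the comparison of the treatment. With edgeR, 0 of the 32 members tested passed, where 0.0% of the 17137 genes tested passed. At an unadjusted p under 0.05 there were 9 members (28.1%), against 13.1% of all genes. Log2 fold changes were negative in 21 of the 32, with a median of -0.16, against 48.6% negative and a median of 0.01 over all genes. For 6 members (18.8%) AC and model libraries were fully separate, each with AC below model, and this was so for 19.0% of all genes.

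These 6 were Itga2, Itga4, Itgal, Itgb4, Lamb1 and Lamc1. For Lamc1, AC libraries (318, 356 and 422 CPM) lay under model libraries (595, 577 and 456 CPM), with a log2 fold change of -0.57 (SE 0.142, adjusted p = 0.249). For Lamb1 the values were 285, 364 and 376 CPM against 561, 446 and 431 CPM (log2 -0.49, SE 0.144, adjusted p = 0.264). Itga2 had the largest difference, 2.71, 4.21 and 5.35 CPM against 8.41, 6.91 and 9.49 CPM (log2 -1.01, SE 0.277, adjusted p = 0.257). Itga4 and Itgal both had -0.56 (SE 0.143, adjusted p = 0.257, and SE 0.168, adjusted p = 0.269), and Itgb4 had -0.34 (SE 0.137, adjusted p = 0.351). The other members at an unadjusted p under 0.05 had overlapping groups: Lama4 (-0.48) with a lower mean in AC tumours, and Itga10 (0.72) and Itga3 (0.38) with higher means. Lama5 had a log2 fold change of -0.23 (SE 0.111, adjusted p = 0.416), Itgb1 of -0.10 (SE 0.0911, adjusted p = 0.675) and Itga5 of 0.12 (SE 0.0873, adjusted p = 0.574). Itgb6, with at most 85 counts in any tumour library, was not tested in this comparison.

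Other settings gave a few calls between AC and model tumours. DESeq2, which called 306 genes (1.79%) in all and 222 (1.30%) lower, called 4 members lower, Itga2 (adjusted p = 0.0387), Itga4 (0.043), Lamb1 (0.0449) and Lamc1 (0.0103), and 0 higher; limma voom called 0 members. Without AC 3, edgeR called 569 genes (3.21%), among them Itga2 (-1.27, adjusted p = 0.0435), Itgal (-0.74, adjusted p = 0.0355) and Lamc1 (-0.70, adjusted p = 0.0337) as lower and Itga3 (0.53, adjusted p = 0.0412) and Itgam (0.49, adjusted p = 0.0311) as higher. Without both model 1 and AC 3 it called 94 genes (0.549%) and 0 members. Over all 17 alternatives the highest adjusted p was 0.924 for Itga2, Lamb1 and Lamc1, 0.977 for Itga4 and Itgal, 0.963 for Itga3 and 0.943 for Itgam. Beside these values, 8 fibroblast markers summed to 1823 to 2295 CPM in model and 1283 to 1740 CPM in AC libraries, the T cell markers to 20.6 to 29.4 CPM and 12.2 to 19.6 CPM, and the 7 B and plasma cell markers to 6.91 to 22.1 CPM and 3.23 to 5.81 CPM. The sums of these 3 lists did not overlap between the groups, and neither did 19.0% of all genes tested. For B and plasma cell markers model 1 was at 22.1 CPM, and model 2 and 3 were at 6.91 and 7.88 CPM. The sums of all other cell type lists overlapped: endothelial, macrophage, neutrophil, epithelial, smooth muscle, platelet, enteric neuron and glia, and adipocyte. The part of these lists in the laminin and integrin differences was not tested.

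**Figure D5:**
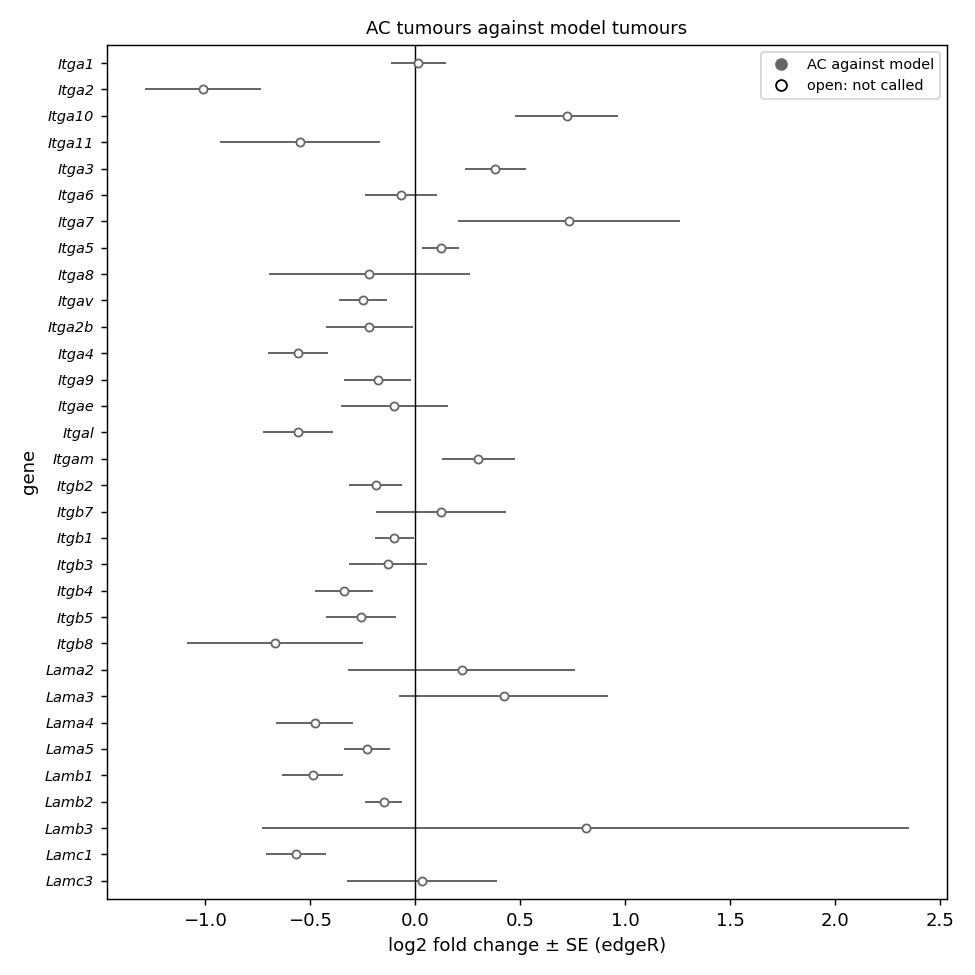
Log2 fold change with SE (x axis, edgeR) of each tested member (y axis) in AC against model tumours, 3 libraries each; all points are open because none passed an adjusted p of 0.05. Most points lie left of 0, Itga2 is farthest to the left at -1.01, and Lamb3, at 0.81 with the widest error bar (SE 1.54), is farthest to the right.

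Other genes of the same system were counted from fixed lists. Of all genes tested, 69.7% passed in model tumours (36.8% higher and 32.9% lower) and 68.2% in AC tumours (35.5% higher and 32.7% lower). In AC against model tumours 13.1% of all genes had an unadjusted p under 0.05. The list counts are to be read beside these shares. Of 15 tested basement membrane genes besides laminins, 10 rose and 4 fell in model tumours (median log2 3.24), and 9 rose and 3 fell in AC tumours (median 2.38). Those that rose included the collagen IV chains Col4a1 (log2 4.28, SE 0.282, adjusted p = 4.84e-05 in model and 3.75, SE 0.253, adjusted p = 7.02e-05 in AC tumours) and Col4a5 (4.79, SE 0.199, adjusted p = 1.78e-05 and 4.41, SE 0.32, adjusted p = 8.72e-05), and in model tumours Nid1, the nidogen that links laminin to collagen IV (3.60, SE 0.227, adjusted p = 4.27e-05). Col4a6, which pairs with Col4a5 in epithelial and smooth muscle basement membranes, fell by 4.47 (SE 0.619, adjusted p = 0.000842) in model tumours and fell by 5.51 (SE 0.739, adjusted p = 0.000869) in AC tumours. It went from a mean of 1.13 CPM in sham to 0.04 and 0.0175 CPM. The tumour means are below the level of 3 counts, so the size of its fall is uncertain. Of 10 other laminin receptors tested, 4 rose and 4 fell in each comparison. The sarcoglycan Sgcd rose by 6.07 (SE 0.664, adjusted p = 0.000318) and 5.31 (SE 0.734, adjusted p = 0.000979), and the syndecan Sdc1 fell by 2.14 (SE 0.22, adjusted p = 0.000247) in model tumours and fell by 2.44 (SE 0.196, adjusted p = 0.000124) in AC tumours. Sgcd had a mean of only 0.193 CPM in sham, near 3 counts, so the size of its rise is uncertain. Of 4 hemidesmosome genes, only Cd151 passed, as lower (log2 -1.11, SE 0.168, adjusted p = 0.00125 and -1.07, SE 0.174, adjusted p = 0.00188). Cd151 is on both lists and is also counted among the 4 other laminin receptors that fell. In AC against model tumours, edgeR called 0 genes of these 3 lists; unadjusted p was under 0.05 for 7 of 13 basement membrane genes tested, 4 of 10 other laminin receptors and 0 of 4 hemidesmosome genes, and of the 7, Smoc2 had a positive value (1.94, SE 0.669, adjusted p = 0.305), larger in size than the others, and the other 6 had negative values, from -0.34 for Hspg2 to -1.20 for Nid1 (SE 0.32, adjusted p = 0.272).

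Of 24 genes for adaptors that tie integrins to actin or signal from them, 11 rose and 4 fell in model tumours and 11 rose and 3 fell in AC tumours (medians 0.99 and 0.87). Of all genes tested, 69.7% and 68.2% passed. Parvb, a parvin, rose by 6.18 (SE 0.226, adjusted p = 1.53e-05) and 6.26 (SE 0.237, adjusted p = 2.61e-05), and Tln2, the second talin, by 4.18 (SE 0.175, adjusted p = 1.78e-05) and 3.95 (SE 0.184, adjusted p = 3.29e-05). Fermt1, the epithelial kindlin, fell by 6.79 (SE 1.25, adjusted p = 0.0028) in model tumours and fell by 6.00 (SE 1.54, adjusted p = 0.0132) in AC tumours, beside the epithelial marker sums given above. Of 19 integrin ligands tested other than laminins, 11 rose and 2 fell in each comparison (medians 2.52 and 1.96). Spp1, which encodes osteopontin, an RGD ligand of Itgav integrins, went from 2.02 ± 0.34 CPM (SD, n = 3) in sham to 3580 ± 781 CPM in model and 3445 ± 537 CPM in AC libraries (log2 10.81, SE 0.343, adjusted p = 1.44e-05 and 10.74, SE 0.29, adjusted p = 2.16e-05). Madcam1, the vessel ligand of the Itga4 and Itgb7 pair, fell by 4.41 (SE 1.03, adjusted p = 0.00786) in model tumours and fell by 4.37 (SE 0.915, adjusted p = 0.00542) in AC tumours, while Itgb7 rose. Madcam1 was low throughout, at 2.27 ± 1.9 CPM in sham and means of 0.0896 and 0.104 CPM in model and AC libraries. The tumour means are below the level of 3 counts, so the size of this fall is uncertain. In AC against model tumours edgeR called 0 of both lists. Unadjusted p was under 0.05 for 5 of 23 adaptors, Vcl (vinculin) having the smallest (log2 -0.54, SE 0.107, adjusted p = 0.186), and for 2 of 18 ligands, Fbn1 (-0.84, SE 0.149, adjusted p = 0.145) and Fn1 (-0.58, SE 0.24, adjusted p = 0.376). The same held for 13.1% of all genes.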

How the data were processed

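RNA was extracted with Trizol and made into libraries with the VAHTS Universal V6 kit, per the labels' protocols (aligner and strandedness: not given in the sources used here). The authors deposited a table of raw counts, for which featureCounts 1.5.0-p3 and build mm9 are named per the submitters' processing notes, and FPKM values, which the deposited counts give when divided by gene length and total count. The lengths implied by both files lay within 1% of the GENCODE M21 exons (GRCm38) for all 35 members described and for 95.7% of 15579 genes with at least 20 counts, so symbols and coordinates are those of GENCODE M21. Of the 36 genes that match the symbol rule, 1 is not reported here. Of 54446 Ensembl identifiers 37 had no symbol there, and 1952 rows had other identifiers.

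Groups came from the treatment and tissue labels and numbers from the titles. Each pair of groups was fitted on its 6 libraries in R 4.3.3 with edgeR 4.0.16 (TMM, filterByExpr, robust glmQLFit and glmQLFTest, Benjamini-Hochberg over all genes tested). SE is the absolute log2 fold change over the root of the F statistic. Levels are CPM with TMM factors over all 9 libraries. DESeq2 1.42.0, limma 3.58.1 (voom, and on log2 FPKM plus 1 or plus 0.1), other scalings, no filter, a replicate block, all libraries together and libraries left out were alternatives; 2 that leave out sham 1 with a tumour library were added after seeing the data. The scripts were tested on simulated data. No 2 libraries were identical, and floors cover counting error only. The members, lists, naming rule and alternatives were chosen with earlier results of these data known. By that rule, library values are given for up to 3 members of each role with the smallest adjusted p in model against sham, and those of Lama3, Itgb4 and Itgb5 were added after their values were seen. List genes named are among the 3 with the smallest adjusted p in a direction, apart from Nid1 in AC against model tumours, which was chosen after its values were seen.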

Additional observations from a re-analysis of the deposited data

How the results depend on the processing

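In model tumours against colon 13 members remained higher and 4 lower (Itga2, Itga7, Itgb6 and Lamb3) under all 17 alternatives, and in AC tumours 12 remained higher and the same 4 lower. How many of all genes kept their call under every alternative was not counted, so these counts do not set the members apart. In the main fits 69.7% and 68.2% of all genes tested passed. The count of lower members moved from 8 to 4 in model tumours and from 9 to 4 in AC tumours without scaling, and equally (4 each) with limma on log2(FPKM + 1) or log2(FPKM + 0.1), values that carry no TMM scaling, where 23.0% to 24.3% of all genes tested were lower instead of 32.9% and 32.7%. Leaving out 1 library gave 5 to 10 lower in model tumours and 5 to 12 in AC tumours, and leaving out sham 1 with model 1 or with AC 3 gave 11 and 14; of all genes tested, 29.0% to 36.4% and 28.3% to 36.9% were then lower with 1 library left out, and 38.8% and 39.8% with 2 left out. The cause was not tested. In AC against model tumours, leaving out 1 library gave 0 to 2 higher and 0 to 3 lower, the calls coming from leaving out AC 3, and DESeq2 gave 4 lower. Signs reversed in model tumours for Itga6 (0.0047 without scaling), Itgav (0.40 without scaling, 0.38 and 0.39 with FPKM plus 1 and plus 0.1) and Itgb4 (-0.48 without sham 1 and model 1, against -0.26 to 0.27 with 1 library left out). In AC tumours they reversed for Itgav (0.18, 0.16 and 0.17 under the same 3 settings), Itga4 (0.89 without sham 1, 0.82 also without AC 3), Itgal (0.87 and 0.71) and Lama3 (-0.44 without sham 1 and AC 3). With 1 library left out these ran from -0.59 to 0.89, -0.53 to 0.87 and -0.50 to 0.49. Members that neither fit called changed sign in 19 of 561, 24 of 544 and 34 of 561 pairs of member and setting for model against sham, AC against model and AC against sham.

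The labels do not say that replicate numbers pair the samples. Same-number correlations of deviations from the group means were -0.0528, -0.00513 and -0.076 for model and sham, -0.493, 0.409 and -0.349 for AC and model, and 0.121, -0.0142 and 0.0781 for AC and sham. Not every library correlated best with its own number in any comparison. These values cannot exclude pairing, because the deviations of 3 libraries depend on each other and on the libraries that stood apart. With the replicate block the counts higher and lower were 14 and 7, 0 and 0, and 13 and 6, and over all genes tested 34.4% and 30.2%, 0.0% and 0.0%, and 33.5% and 29.9%. Members near 3 counts (Itgad, Lama1, Lamc3 in colon, Itgb6 and Lamb3 in tumours) are limited by depth. So are the list genes Madcam1 and Col4a6 in tumours and Sgcd in colon.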
